A study of Mus musculus with 2 samples.

Results

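The genes described here are 7 receptors of ER-phagy, the selective autophagy of the endoplasmic reticulum (ER): *Retreg1*, *Sec62*, *Rtn3*, *Ccpg1*, *Tex264*, *Atl3* and *Calcoco1*. They were chosen by symbol as known receptors of this pathway, and all 7 were found among the 32285 genes of both deposited matrices. Nuclei came from the tibialis anterior (TA) of both legs of male mice on a C57BL/6 background at 6 weeks of age, with 2 animals pooled per genotype, and were sorted by 7-AAD staining of their DNA. M-*Bcl6* KO mice carry *Myf6*-Cre and loxP sites on both *Bcl6* alleles (Myf6-Cre+ Bcl6 fl/fl), and their littermate controls, M-*Bcl6* WT, carry the same Cre with unfloxed *Bcl6* (Myf6-Cre+ Bcl6 wt/wt). The *Myf6* promoter drives Cre in the muscle lineage, so both groups express Cre there. The comparison asks how the loss of the transcription factor BCL6 from muscle fibres goes with the level of these receptors, and in which nuclei each receptor is found.

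In ER-phagy, a receptor on the ER binds LC3 and GABARAP proteins on the growing autophagosome through a short motif, the LC3-interacting region, and a piece of ER is enclosed and carried to the lysosome. Most of the receptors are membrane proteins of different ER domains, while CALCOCO1 is soluble and reaches the ER through the VAP proteins. Muscle fibres hold a specialised form of this organelle, the sarcoplasmic reticulum, which stores the calcium for contraction.

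Each genotype was sequenced as 1 library, so no replicates were at hand, genotypes were not tested against each other and nuclei did not serve as replicates. The deposited matrices held 11974138 unique molecular identifiers (UMIs, 1 per captured RNA molecule) in the library labelled WT and 12026013 in that labelled KO. After filtering, 3674 and 3944 nuclei remained, of which 2407 and 3084 were myonuclei. The 10 myonuclear markers summed to 97622 and 113605 CPM (UMIs of the gene per 1000000 UMIs) in them, against 4141 and 5995 CPM in the other nuclei. Clusters were called myonuclear when these same markers summed to at least 50000 CPM. This contrast was thus set by the naming and does not check the labelled tissue. *Bcl6* itself went against the label, with myonuclear levels of 167 CPM in the library labelled WT and 502 CPM in that labelled KO. A total over the gene does not show whether the floxed exons 7 to 9 are present, so this value checks nothing about the deletion, and the libraries are named below only as they were labelled. All intervals are exact 95% intervals that cover counting error only, and they do not include differences between animals or preparations.

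The files do not give the transcript or the start site that a UMI came from. By GENCODE M21 on GRCm38, *Retreg1* lies at chr15:25843180-25973687 on the plus strand and spans 130.5 kb, the longest of the 7, and *Calcoco1* lies on the same chromosome at chr15:102706777-102722178 on the minus strand. *Rtn3* (chr19:7425901-7483281, minus strand) and *Atl3* (chr19:7494040-7539674, plus strand) are neighbours that are read in opposite directions from starts 10.8 kb apart. *Ccpg1* (chr9:72985429-73016340, plus strand) and *Tex264* (chr9:106658746-106685927, minus strand) share chromosome 9, and *Sec62* lies at chr3:30792875-30821263 on the plus strand. Genes on the other strand overlap *Sec62* (4933429H19Rik), *Rtn3* (2700081O15Rik) and *Ccpg1* (*Pigb*), and whether the counting used strand is not given in the sources used here. Another protein-coding gene model, Gm44503, overlaps *Ccpg1* on the same strand and is not among the genes of the files. Whether reads from it were counted for *Ccpg1* cannot be told, so reads of *Ccpg1* are less certain.

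RefSeq promoter windows (GRCm38.p6, 250 bases before to 50 bases after a start) were available for all 7 genes, 11 windows in all. Both strands were searched for 6 motifs: TTCNNNGAA, the form bound by STAT and BCL6 proteins, its BCL6 version TTCCTAGAA, the E-box CACGTG, the FOXO motif TGTTTAC, the unfolded protein response element TGACGTGG and the ATF4-type motif TGATGCAA. Of all 32817 promoter windows, 8.29%, 0.411%, 7.15%, 3.65%, 0.676% and 0.896% hold them in that order. TTCCTAGAA is contained in the pattern TTCNNNGAA, and CACGTG and TGACGTGG share the letters ACGTG. Windows of 2 of the 7 genes held a match, *Retreg1* and *Sec62*. The share of all windows that hold at least 1 of the 6 motifs was not computed, so whether 2 genes are many or few is not known. *Retreg1* also has more windows than any of the other genes. *Retreg1* has 4 RefSeq starts. The first is rich in G and C (74.7%, against a median of 52.7% over all promoters) and held none of the 6 motifs, whereas start 4, 99.4 kb downstream (40.7%), held TTCTCTGAA beginning 87 bases and CACGTG beginning 188 bases before the start. *Sec62* held CACGTG beginning 32 bases before its start. The windows are shown because they contrast the starts of the gene with the largest difference between the libraries, with motif matches in capitals. A match is a description of the letters and not evidence of binding.
*Retreg1*, start 1, chr15:25843048-25843347, plus strand: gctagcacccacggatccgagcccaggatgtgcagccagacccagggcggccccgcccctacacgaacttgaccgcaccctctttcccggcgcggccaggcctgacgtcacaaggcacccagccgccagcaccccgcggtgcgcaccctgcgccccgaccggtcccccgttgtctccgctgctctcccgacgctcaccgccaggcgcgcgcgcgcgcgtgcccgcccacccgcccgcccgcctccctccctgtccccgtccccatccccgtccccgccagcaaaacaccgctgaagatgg
*Retreg1*, start 4, chr15:25942429-25942728, plus strand: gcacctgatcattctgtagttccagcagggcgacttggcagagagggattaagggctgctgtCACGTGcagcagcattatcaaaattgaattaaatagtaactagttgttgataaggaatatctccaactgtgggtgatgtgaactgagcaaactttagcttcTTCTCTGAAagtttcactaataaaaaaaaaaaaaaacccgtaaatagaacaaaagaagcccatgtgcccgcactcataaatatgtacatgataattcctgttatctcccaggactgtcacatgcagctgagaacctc
*Sec62*, chr3:30792626-30792925, plus strand: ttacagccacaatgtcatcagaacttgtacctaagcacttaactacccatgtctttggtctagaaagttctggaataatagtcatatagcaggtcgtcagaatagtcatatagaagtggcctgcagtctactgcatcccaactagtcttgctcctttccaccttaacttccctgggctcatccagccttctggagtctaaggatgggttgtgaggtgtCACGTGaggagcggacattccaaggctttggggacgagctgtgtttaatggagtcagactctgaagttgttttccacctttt

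*Retreg1* was the receptor with the highest level per length in myonuclei. Per kb of gene span, its level in the libraries labelled WT and KO was 10.1 and 20.2 CPM. On the same scale *Rtn3* had 6.85 and 4.996, *Calcoco1* 6.79 and 4.91, and *Sec62* 4.64 and 6.17 CPM per kb. *Ccpg1* (2.82 and 2.28), *Atl3* (1.70 and 1.97) and *Tex264* (0.379 and 0.463) came last in both libraries. The order of *Rtn3* and *Calcoco1* cannot be read from these values, which lie within their counting error. Per kb of exon the distance was wider, with 319 and 637 CPM for *Retreg1* against 78.2 and 57.1 CPM for *Rtn3*, and the order below *Rtn3* became *Sec62*, *Calcoco1*, *Ccpg1*, *Atl3* and *Tex264*. Which scale suits the files was not tested, as the counting of intronic reads is not given in the sources used here.

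The receptors did not move together between the libraries. *Retreg1*, which encodes the reticulon-type protein FAM134B that curves ER sheets, had myonuclear levels of 1322 CPM in the library labelled WT and 2637 CPM in that labelled KO, a log2 ratio of 1.00 (0.96 to 1.03). *Sec62*, a subunit of the ER translocon that also acts as a receptor when cells recover from ER stress, had 132 and 175 CPM and a log2 ratio of 0.41 (0.30 to 0.52). Its level was higher in the library labelled KO, as that of *Atl3* was. *Atl3* encodes atlastin 3, a GTPase at the junctions of ER tubules, and had 77.4 and 90.1 CPM, a log2 ratio of 0.22 (0.07 to 0.37). *Tex264*, a single-pass membrane receptor, had only 91 and 121 UMIs (10.3 and 12.6 CPM), and its interval included no difference (0.29, from -0.12 to 0.70).

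The 3 others were lower in the library labelled KO. *Rtn3*, the reticulon whose long form is a receptor of ER tubules, had 393 CPM in the library labelled WT and 287 CPM in that labelled KO, a log2 ratio of -0.45 (-0.53 to -0.38). *Calcoco1* had 105 and 75.6 CPM, a log2 ratio of -0.47 (-0.61 to -0.33). *Ccpg1*, a receptor that is induced by the unfolded protein response and also binds the autophagy initiation protein encoded by *Rb1cc1*, had 87.2 and 70.4 CPM, a log2 ratio of -0.31 (-0.46 to -0.16). Its interval ended just below the median of all genes. Over the 6975 genes with at least 200 UMIs the median log2 ratio was -0.15, and TMM scaling, which is based on genes in the middle of the ratios, would move all ratios up by 0.12. Summed without *Retreg1*, the other 6 receptors had 804 and 710 CPM, a log2 ratio of -0.18 (-0.23 to -0.13).

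With "past the fold" set at 1.5-fold, 1 of the 7 receptors (*Retreg1*) was higher and 0 were lower in the library labelled KO, where 6.8% of all genes were higher and 9.85% lower. By log2 ratio *Retreg1* stood at place 218 from the top of 6975 genes, *Sec62* at 722, *Rtn3* at 5803 and *Calcoco1* at 5874. The directions of all 7 were the same under the 12 alternative settings, in which *Retreg1* ranged from 0.99 to 1.13.

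**Figure D1:**
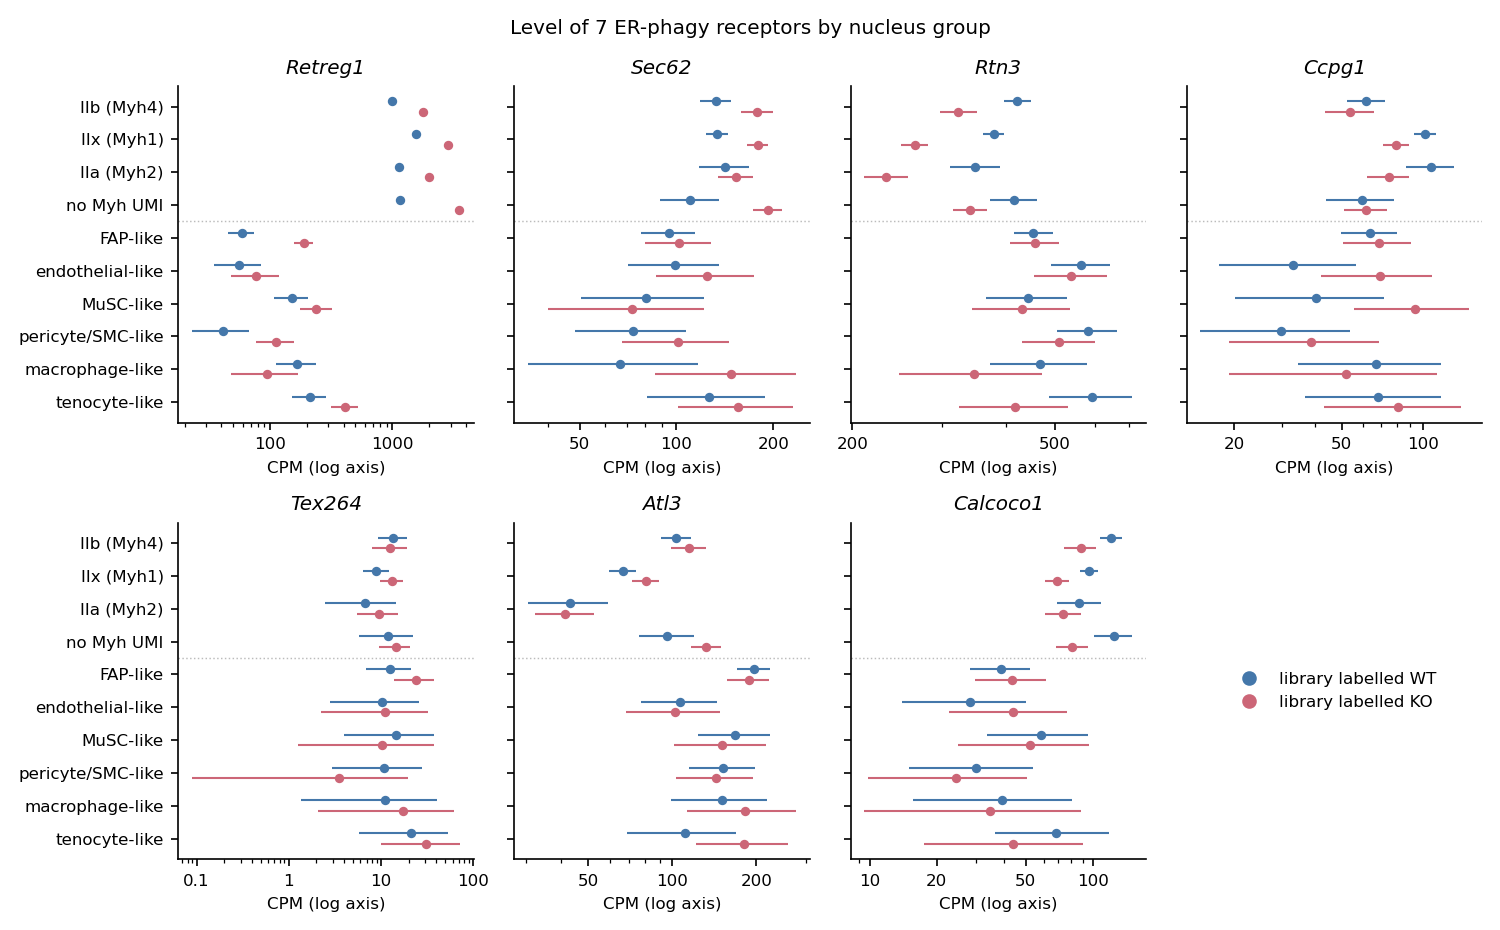
Level of each receptor (CPM, log axis, with a different range in each panel) in 4 groups of myonuclei by main Myh gene and, under the dotted line, in 6 non-muscle classes. Blue and red points are the libraries labelled WT and KO and lines are exact Poisson 95% intervals. *Retreg1* lies at or above 999 CPM in every myonuclear group and at or below 411 CPM in every other class, whereas *Atl3* in FAP-like nuclei (195 and 188 CPM) is above every myonuclear group.

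Myonuclei were then grouped by fibre type, as the Myh gene with most UMIs: *Myh4* (type IIb, 701 and 612 nuclei in the libraries labelled WT and KO), *Myh1* (IIx, 1155 and 1174) and *Myh2* (IIa, 236 and 482). A further 274 and 731 myonuclei had no UMI of these genes or *Myh7*, which is 11.4% and 23.7% of myonuclei. Type I nuclei (*Myh7*, 2 and 19) were too few to describe.

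*Retreg1* was highest in IIx nuclei among the typed groups. Its level in IIb, IIx and IIa nuclei was 999, 1576 and 1132 CPM in the library labelled WT and 1791, 2863 and 1984 CPM in that labelled KO. IIx nuclei were 1.58-fold and 1.60-fold above IIb nuclei in the 2 libraries, and IIa nuclei only 1.13-fold and 1.11-fold. A stricter typing used only nuclei with at least 5 Myh UMIs and 80% of them from 1 gene. With it the log2 ratio of IIx over IIb was 0.76 and 1.00, against 0.66 and 0.68 before. For IIa over IIb nuclei of the library labelled KO it was 0.58, against 0.15 before. *Retreg1* was the only receptor at least 1.5-fold higher in IIx than IIb nuclei in both libraries, as were 11.6% of all genes (5.61% were lower, with 0 receptors). As a mean over nuclei *Ccpg1* was past this fold too, with log2 ratios of 0.62 and 0.77. *Atl3* was past it downwards in both libraries with the stricter typing and after thinning to 1000 UMIs per nucleus. In the library labelled KO its log2 ratio was then -0.69 and -0.81, against -0.51 before. In that labelled WT it ranged from -0.86 to -0.61 over the alternatives.

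*Atl3* was highest in IIb, lower in IIx and lowest in IIa nuclei of both libraries. It had 103, 66.4 and 42.9 CPM in IIb, IIx and IIa nuclei of the library labelled WT, and 114, 80.5 and 41.3 CPM in those of the library labelled KO. The log2 ratio of IIa over IIb was -1.27 (-1.80 to -0.77) and -1.47 (-1.89 to -1.07), and thinning to 1000 UMIs per nucleus moved it to -1.97 and -2.82. These thinned values rest on few UMIs and on fibre types set anew from the thinned Myh UMIs. By the original types, only 6 of 233 and 10 of 476 thinned IIa nuclei had an *Atl3* UMI, so their size is uncertain. It was the 1 receptor at least 1.5-fold lower in IIa than IIb nuclei in both libraries, as were 11.6% of all genes.

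*Ccpg1* ran the other way. Its levels in IIb, IIx and IIa nuclei were 61.6, 102 and 107 CPM in the library labelled WT, against 53.7, 79.7 and 74.8 CPM in that labelled KO. IIa nuclei were 1.74-fold and 1.39-fold above IIb nuclei, so that 0 receptors were past 1.5-fold higher in both libraries, against 12.2% of all genes. The IIx and IIa levels of *Ccpg1* did not differ beyond counting error in either library.

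*Rtn3* was lower in IIx and IIa than in IIb nuclei of both libraries by small amounts. *Rtn3* had 422, 379 and 349 CPM in IIb, IIx and IIa nuclei of the library labelled WT and 323, 265 and 233 CPM in that labelled KO. *Calcoco1* had 120, 95.8 and 86.9 CPM, and 87.8, 69.0 and 73.6 CPM. It was also lower in IIx than in IIb nuclei of both libraries, but for IIa over IIb nuclei of the library labelled KO the interval of the log2 ratio included no difference (-0.26, from -0.61 to 0.10). *Sec62* had 132, 134 and 141 CPM in IIb, IIx and IIa nuclei of the library labelled WT and 178, 179 and 153 CPM in those of the library labelled KO. Of these pairs, the interval was off 0 for 1, IIa over IIx nuclei of the library labelled KO (-0.23, from -0.44 to -0.02). *Tex264* had from 6 to 53 UMIs in these groups, too few to order them.

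Summed over each fibre type in the main setting, the ratios of *Retreg1* between the libraries lay close together. They lay further apart with stricter fibre typing, and within a fibre type they differed between clusters (below). Its log2 ratio, KO over WT, was 0.84 (0.77 to 0.92) in IIb, 0.86 (0.82 to 0.90) in IIx and 0.81 (0.71 to 0.91) in IIa nuclei, all of them past 1.5-fold. In IIb nuclei it was 0.49 when only nuclei with at least 5 Myh UMIs and 80% of them from 1 gene were used, which is under 1.5-fold. In IIx nuclei it was 0.73 with the same typing. In these groups *Retreg1* was the 1 receptor past the fold upwards, against 5.66%, 7.01% and 6.75% of all genes, and 0 receptors were past it downwards, against 11%, 11.2% and 8.09%. *Rtn3* in IIa nuclei was just under it, with 349 and 233 CPM and a log2 ratio of -0.58 (-0.80 to -0.36).

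The nuclei without a Myh UMI differed most. In them *Retreg1* had 1165 and 3513 CPM in the libraries labelled WT and KO, a log2 ratio of 1.59 (1.495 to 1.69). *Sec62* had 110 and 192 CPM, a log2 ratio of 0.80 (0.47 to 1.15), and was the second receptor past the fold, where 10.5% of all genes were. Its ratio was under the fold after thinning (0.51) and as a mean over nuclei (0.51). *Calcoco1* had 124 and 80.7 CPM, a log2 ratio of -0.61 (-0.98 to -0.24), and was the 1 receptor past it downwards, against 12.1% of genes. It was under the fold with nuclei assigned by their own marker UMIs (-0.53) and as a mean over nuclei (-0.58). These nuclei had a median of 2402 and 2201 UMIs, against 3374 and 3061 in IIx and 3004 and 2393.5 in IIb nuclei. The share of myonuclei without a Myh UMI was higher in the library labelled KO. With the groups weighted equally, the log2 ratio of *Retreg1* over myonuclei was 1.13 in place of 1.00, and no other test of the make-up was run.

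**Figure D2:**
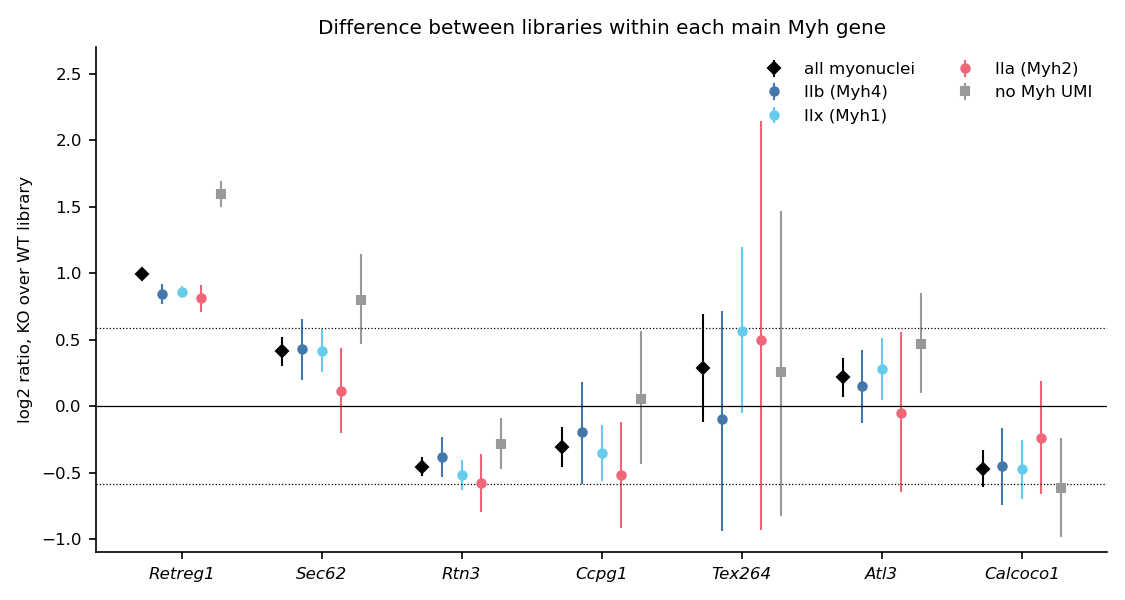
Log2 ratio of each receptor, library labelled KO over library labelled WT, in all myonuclei (black diamonds) and within each main Myh gene (coloured points) or without a Myh UMI (grey squares). Lines are exact 95% intervals for counting error, dotted lines mark 1.5-fold. *Retreg1* stands above the upper dotted line in every group, *Rtn3* is below 0 in every group, and the intervals of *Tex264* all include 0.

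Within a fibre type, *Retreg1* also differed between clusters. Nuclei had been clustered without the 7 receptors, the pathway lists and 1300 genes that differed 2-fold between the libraries, and 5 large clusters were myonuclear, the smallest of them, cluster 5, with 219 and 363 nuclei. Their leading genes against other myonuclei included *Ppara*, *Ppargc1a* and *Myoz2* (cluster 0), *Myh4*, *Rian* and *Meg3* (cluster 1), *Myom3*, *Casq2* and *Myh2* (cluster 2), *Gpt2*, *Pfkfb3* and *Actn3* (cluster 3) and *Nr4a3*, *Nr4a1* and *Trim63* (cluster 5). These names only describe the clusters, which were not tested against each other.

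Among IIx nuclei of the library labelled WT, *Retreg1* had 1987 CPM in cluster 0, 1616 CPM in cluster 5, 778 CPM in cluster 2 and 587 CPM in cluster 1. In the library labelled KO the same groups had 3879, 4522, 1079 and 1190 CPM. The clusters with high and low levels were thus the same in both libraries, but their ratios differed. The log2 ratio in IIx nuclei was 1.48 (1.37 to 1.60) in cluster 5, 1.02 (0.67 to 1.39) in cluster 1, 0.97 (0.91 to 1.02) in cluster 0 and 0.47 (0.35 to 0.60) in cluster 2. Cluster 1 had the lowest level in the library labelled WT, so the ratios did not follow the order of the levels. In IIa nuclei of cluster 2 it was 0.15 (-0.06 to 0.35), with 680 and 752 CPM, so no difference was detectable there at this depth. In IIa nuclei of cluster 0 it was 0.65 (0.52 to 0.78), with 1778 and 2789 CPM. Both ratios lay below the 0.81 of all IIa nuclei. Cluster 0 held 87 of 236 IIa nuclei in the library labelled WT and 261 of 482 in that labelled KO. IIb nuclei showed the same unevenness, with 0.83 (0.69 to 0.97) in cluster 1 and 1.43 (1.31 to 1.55) in cluster 3. Cluster 1 held 321 of 701 and 437 of 612 IIb nuclei in the libraries labelled WT and KO, whose summed ratio was 0.84. Nuclei without a Myh UMI had 1.52 (1.25 to 1.80) in cluster 1 and 1.38 (1.24 to 1.53) in cluster 3, both below their summed 1.59. In cluster 3 their interval overlapped that of IIb nuclei. How far the make-up by cluster shaped the ratio of each group was not tested.

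Among IIx nuclei, *Rtn3* and *Calcoco1* had their lowest ratios in cluster 5, where that of *Retreg1* was highest. Their places are not certain, as the intervals of both genes overlapped those of cluster 0 (-0.87 to -0.52 and -0.89 to -0.19). There *Rtn3* had 400 CPM in the library labelled WT and 204 CPM in that labelled KO, a log2 ratio of -0.97 (-1.30 to -0.64), and *Calcoco1* 108 and 58.6 CPM, a log2 ratio of -0.88 (-1.52 to -0.25). *Ccpg1* had 89.9 and 49.1 CPM there, a log2 ratio of -0.87 (-1.58 to -0.18). The ratios did not pair off in this way throughout. In IIx nuclei of cluster 1 *Retreg1* was at 1.02, but *Rtn3* at -0.16 (-0.63 to 0.32) and *Calcoco1* at -0.42 (-1.35 to 0.58). In IIb nuclei of cluster 3 *Rtn3* had 408 and 347 CPM, a log2 ratio of -0.23 (-0.51 to 0.04).

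**Figure D3:**
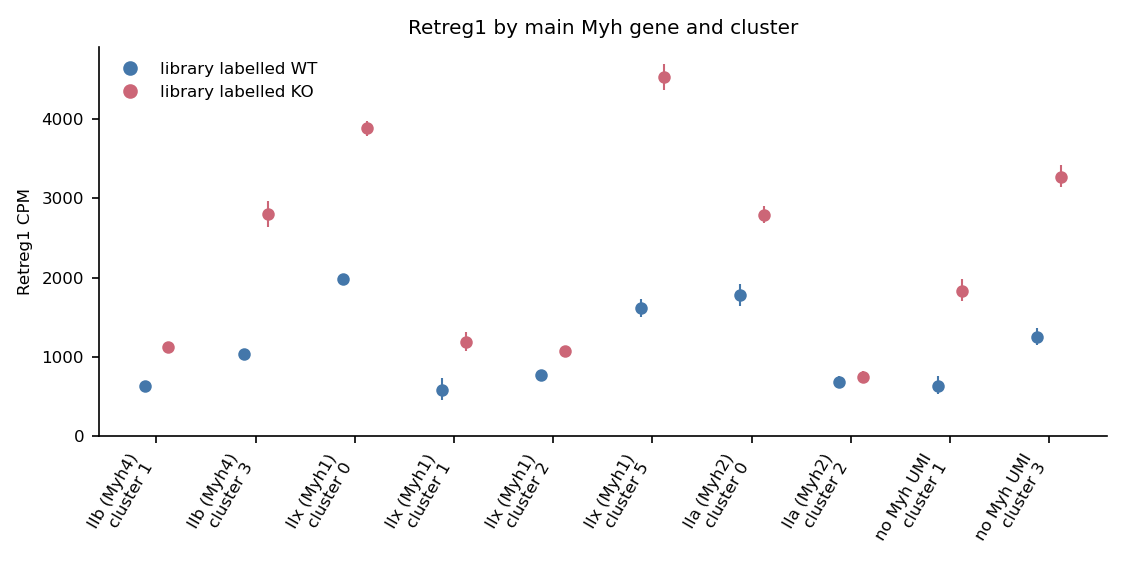
*Retreg1* level (CPM) in myonuclei grouped by main Myh gene and cluster, for the groups with at least 30 nuclei in each library, with exact Poisson 95% intervals. In IIx nuclei the library labelled KO (red) reaches 4522 CPM in cluster 5 and 1079 CPM in cluster 2, and in IIa nuclei of cluster 2 the intervals of the libraries overlap.

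To see how single nuclei carried these levels, every nucleus was thinned at random to 1000 UMIs. Of 2381 thinned myonuclei in the library labelled WT, 63.5% (61.5 to 65.4) had at least 1 UMI of *Retreg1*, as did 77.8% (76.3 to 79.3) of 3010 in that labelled KO. Without thinning the shares were 85.6% and 91.1%, at median depths of 3127 and 2707 UMIs. In endothelial-like nuclei, with median depths of 1391 and 1748 UMIs, the thinned shares were 3.92% and 7.83% and the unthinned ones 6.25% and 13.6%. The mean was 1.27 and 2.59 *Retreg1* UMIs per thinned myonucleus, and 6 or more were found in 1.72% and 12.7% of myonuclei.

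*Retreg1* varied between nuclei by more than counting alone would give. Its Fano factor (variance over mean, which is 1 for counting alone) was 1.58 in the library labelled WT and 2.37 in that labelled KO. Within cluster 5 of the library labelled KO, where 36.8% of nuclei had 6 or more UMIs, it was 1.59. Factors of the other 6 ranged from 0.983 to 1.21, but this factor grows with the mean, which was far lower for them, so the receptors cannot be ordered by it. A thinned myonucleus had UMIs of 1.33 and 1.42 of the 7 receptors on average. Over single myonuclei, no pair of receptors had a Pearson correlation above 0.041 or below -0.044, which in counts this sparse is no finding.

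**Figure D4:**
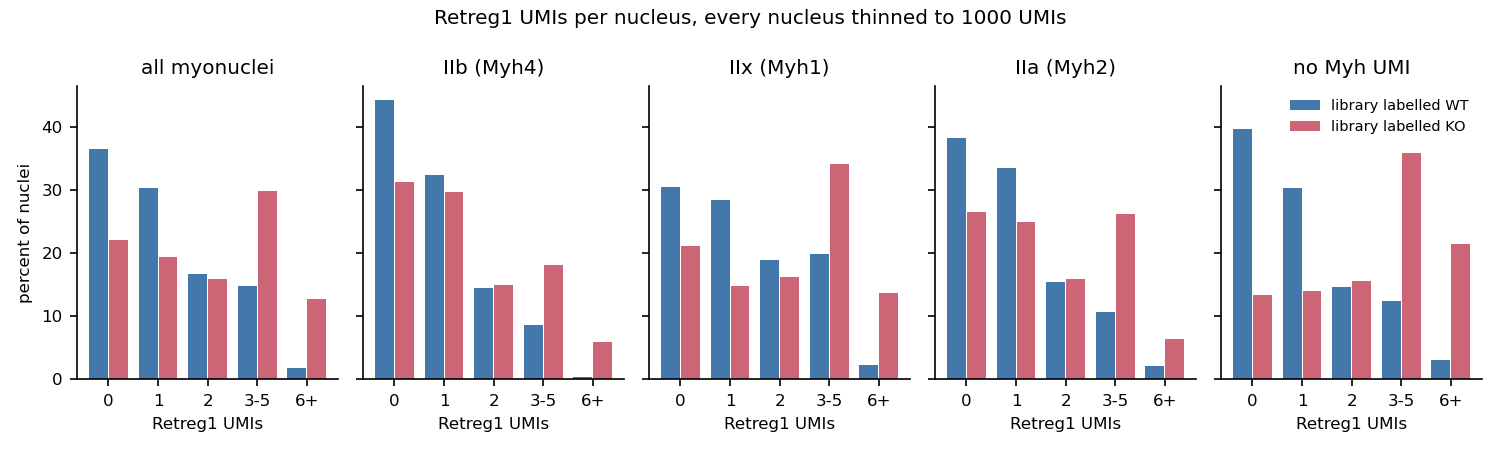
Share of myonuclei (percent) with 0, 1, 2, 3 to 5, or 6 and more *Retreg1* UMIs after thinning to 1000 UMIs, in all myonuclei and by main Myh gene. Blue and red bars are the libraries labelled WT and KO. The red bars are higher at 3 to 5 and 6 or more UMIs in every panel, and 21.4% of nuclei without a Myh UMI in the library labelled KO had 6 or more.

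Outside the fibres, the receptors were read in 6 classes with at least 50 nuclei in each library: fibro-adipogenic progenitors (FAP-like, 484 and 332 nuclei), endothelial-like (224 and 132), muscle stem cell (MuSC-like, 186 and 127), pericyte or smooth muscle-like (158 and 117), macrophage-like (100 and 57) and tenocyte-like (72 and 62) nuclei. *Retreg1* was far lower there than in myonuclei, by 6.27-fold in tenocyte-like and 32.4-fold in pericyte or smooth muscle-like nuclei of the library labelled WT. Free RNA from broken fibres also reaches these droplets. The 10 myonuclear markers were at 2.36% to 12.02% of their myonuclear level in the 6 classes of the library labelled WT, and at 2.71% to 9.42% in the library labelled KO. The same share of the myonuclear level of a receptor is what free RNA alone would give, or less if a class transcribes some of the markers.

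*Retreg1* lay within its counting interval of this level in 6 of 12 pairs of class and library, above it in 5 and below it in 1. It was within in endothelial-like, MuSC-like and pericyte or smooth muscle-like nuclei of both libraries. There its values cannot be told apart from free RNA by this estimate, which is too high if a class transcribes some of the markers. In FAP-like nuclei it had 58.5 CPM (45.2 to 74.6) in the library labelled WT, against 31.1 CPM from free RNA, and 189 CPM (158 to 224) in the library labelled KO, against 101 CPM. These are 1.88 and 1.87 times that level, so that the higher value in the library labelled KO went with a higher level of free RNA, whose part in it was not tested further. Tenocyte-like nuclei had 1.96 and 1.90 times that level, with 211 and 411 CPM. Macrophage-like nuclei were above it in the library labelled WT (167 against 36.0 CPM) and below it in the library labelled KO (95.3 against 191 CPM). *Retreg1* in these classes also moved with the removal of doublets, without which FAP-like nuclei had 130 and 343 CPM.

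The other receptors were well above the level of free RNA. *Sec62*, *Rtn3*, *Ccpg1*, *Atl3* and *Calcoco1* exceeded it in 12 of 12 pairs, and *Tex264* in 11. The medians over the pairs were 33.1-fold for *Rtn3*, 35.6-fold for *Atl3*, 27.6-fold for *Tex264*, 13.3-fold for *Ccpg1*, 12.2-fold for *Sec62* and 7.67-fold for *Calcoco1*. With 1 exception for *Tex264*, their levels outside the fibres were thus more than free RNA alone would give, whereas *Retreg1* was not above it in 7 of 12 pairs.

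*Rtn3* had 562 and 539 CPM in endothelial-like, 580 and 511 CPM in pericyte or smooth muscle-like and 454 and 456 CPM in FAP-like nuclei of the libraries labelled WT and KO. All of these are above the 393 and 287 CPM of myonuclei. The log2 ratio of the libraries was 0.01 (-0.20 to 0.21) in FAP-like, -0.04 (-0.46 to 0.38) in MuSC-like, -0.06 (-0.37 to 0.24) in endothelial-like and -0.18 (-0.50 to 0.13) in pericyte or smooth muscle-like nuclei. In macrophage-like nuclei it was -0.43 (-1.01 to 0.13) and in tenocyte-like nuclei -0.50 (-0.96 to -0.05), close to the -0.45 of myonuclei. Whether the classes differ in this ratio was not tested. *Atl3* was highest in FAP-like nuclei, with 195 and 188 CPM, and its lowest class was the endothelial-like one, with 107 and 103 CPM, which did not differ from the 77.4 and 90.1 CPM of myonuclei beyond counting error.

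*Calcoco1* was lower outside the fibres, and *Sec62* overlapped with its myonuclear range. *Calcoco1* had from 24.5 to 68.5 CPM over the 12 pairs, against 105 and 75.6 CPM in myonuclei. The difference was within counting error in tenocyte-like nuclei of both libraries. It was so too in MuSC-like, endothelial-like and macrophage-like nuclei of the library labelled KO, the last with 4 UMIs. *Sec62* had from 66.8 to 156 CPM, with a median of 100 CPM, against 132 and 175 CPM. *Ccpg1* had from 29.9 to 93.6 CPM and *Tex264* from 3.497 to 31.2 CPM, both on few UMIs.

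**Figure D5:**
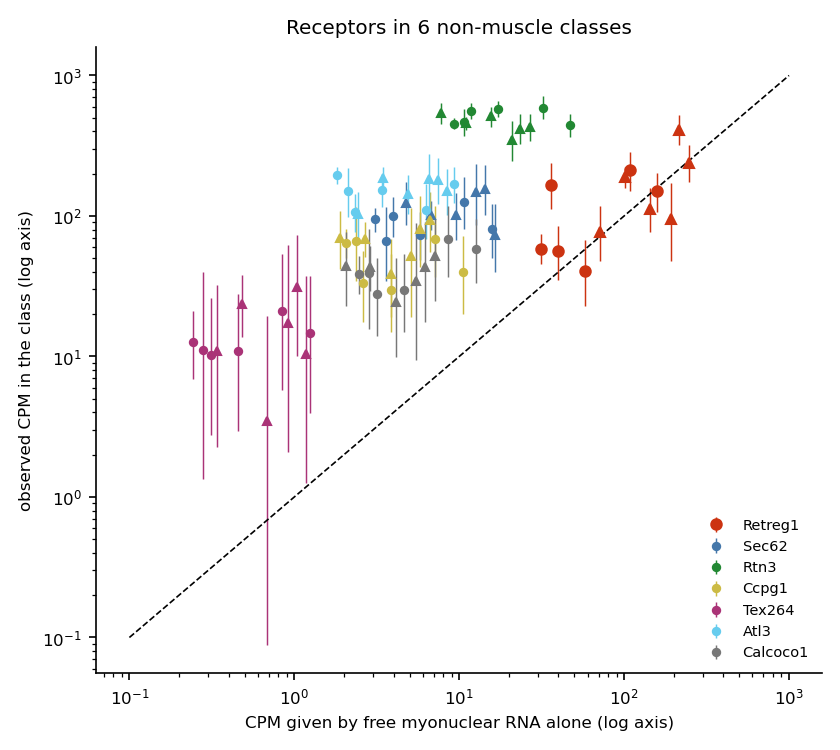
Observed level of each receptor (CPM, log axis) in 6 non-muscle classes against the level that free myonuclear RNA alone would give (CPM, log axis). Circles are the library labelled WT, triangles the library labelled KO, lines exact Poisson 95% intervals, and the dashed line marks equality. *Retreg1* (large red symbols) lies around the dashed line, from 0.498 to 4.64 times it, and the other receptors lie above it.

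Across the 20 pairs of library and group (4 myonuclear groups and 6 other classes), the genes most like *Retreg1* in log2 CPM among 8642 included *Asb15* (r = 0.97), *Plin4*, a coat protein of lipid droplets (0.97), *Golga4*, a golgin (0.96), and *Myom2*, a protein of the M-band (0.96). Those most like *Calcoco1* were *Ube2d1* (0.94), *Stac3*, which acts in excitation-contraction coupling (0.94), *Myh14* (0.94), *Arrdc2* (0.93) and *Prr33* (0.93). Among the receptors themselves, *Retreg1* had r = 0.83 with *Calcoco1* and 0.71 with *Sec62*, and -0.78 with *Rtn3* and -0.60 with *Atl3*. The points share libraries and free RNA, and most of their spread is that between fibres and other cells.

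The genes that receptors work with were read in myonuclei from fixed lists. In each list 0 genes were at least 1.5-fold higher in the library labelled KO, where 6.8% of all genes were. With 6 to 27 measured genes in a list, that share would give few or none. Of all genes, 9.85% were past the fold downwards, and the counts below are to be read against it. Of the 13 structural relatives and partners of the receptors, 8 had 200 UMIs, with a median log2 ratio of -0.25 and 0 past the fold downwards. The lowest were *Atl2*, a second atlastin (-0.56, from -0.65 to -0.47), and *Sec63*, the translocon partner of SEC62 (-0.54, from -0.66 to -0.43), and the highest *Atl1* (0.16) and *Sec61a1* (-0.01).

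The ER-shaping list had 9 of 14 genes with 200 UMIs, a median of -0.32, and 2 genes past the fold downwards, against 9.85% of all genes. *Reep1*, which shapes ER tubules, had 131 and 62.7 CPM in the libraries labelled WT and KO, a log2 ratio of -1.06 (-1.20 to -0.92). *Zfyve27*, which encodes protrudin, had 39.3 and 24.0 CPM, a log2 ratio of -0.71 (-0.96 to -0.47). The highest were *Reep3* (-0.11) and *Vapb* (-0.23), 1 of the VAP genes whose products CALCOCO1 binds.

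The ATG8 and autophagosome list stood nearest to the median of all genes, with 27 of 29 genes measured, a median of -0.09 and 1 past the fold downwards. This was *Atg5*, which acts in attaching LC3 to lipid (55.1 and 35.1 CPM, -0.65 from -0.85 to -0.45), with *Atg14* next (30.7 and 20.5 CPM, -0.58 from -0.86 to -0.31). *Wipi1*, whose product binds the lipids of forming autophagosomes (109 and 132 CPM, 0.28 from 0.16 to 0.40) and *Gabarapl1*, a GABARAP protein (43.9 and 51.0 CPM, 0.22 from 0.02 to 0.41), were highest.

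UFMylation, the attachment of the small protein UFM1 that acts in ER-phagy, had 6 of 7 genes measured, a median of -0.28 and 1 past the fold downwards, the ligase *Ufl1* (98.4 and 61.9 CPM, -0.67 from -0.82 to -0.52). *Cdk5rap3* was next (-0.34), and *Ddrgk1* (0.19) was highest. The unfolded protein response had 16 of 25 genes measured, a median of -0.36 and 2 past the fold downwards. They were the chaperone *Hyou1* (19.4 and 9.25 CPM, -1.07 from -1.45 to -0.69) and *Eif2ak3*, which encodes the sensor PERK (40.6 and 25.6 CPM, -0.67 from -0.91 to -0.43). *Edem1*, which acts in ER-associated degradation (35.7 and 52.1 CPM, 0.55 from 0.34 to 0.75) and *Ern1*, which encodes the sensor IRE1 (94.8 and 123 CPM, 0.38 from 0.25 to 0.51), were the highest of that list. The 7 receptors had a median of 0.22 on this scale and all genes one of -0.15.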

How the data were processed

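Single-nucleus RNA of TA muscle was measured in 1 library per genotype. The files that the authors deposited hold raw UMI counts, in whole numbers, for each gene and called barcode. Per the submitters' processing notes, Cell Ranger 7.0.0, Seurat 5.0.3 and mm10 were used. The labels name a 10x multiome kit and the methods a 3′ gene expression kit. Nuclei with 200 to 5000 genes and at most 5% mitochondrial UMIs were kept, and the highest Scrublet scores (scanpy 1.11.5) were removed at 0.8% per 1000 barcodes, 115 and 134 nuclei. Its own threshold marked 8 and 4 and was not used. The libraries shared 6 barcode sequences. Seurat 5.3.0 in R 4.3.3 integrated and clustered nuclei (2000 variable genes, of which 1628 were used, 30 components, resolution 0.5). Classes were named from marker lists by a scoring rule set after the clusters were seen. Sums, CPM and exact Poisson, Clopper-Pearson and conditional intervals were computed with scipy 1.17.1, numpy 2.4.6 and pandas 2.3.3 under Python 3.11.15, and the ratio was checked on simulated data. TMM used edgeR 4.0.16. Since each genotype has 1 library, genotypes were not tested. Alternatives were other filters, doublet handling, clustering, scaling, thinning, weighting and fibre typing. Named genes are all receptors, the 2 highest and 2 lowest ratios of each list, the 5 genes most like *Retreg1* and *Calcoco1*, markers and *Bcl6*, of which 2 genes are not reported here. The receptors and lists were chosen with earlier results of these data known. Protein sequences were not used here.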

Additional observations from a re-analysis of the deposited data

Results flagged for a closer look

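The log2 ratio of *Ccpg1* between the libraries had opposite signs in muscle stem cell-like nuclei and in myonuclei, each with a counting interval that does not include 0. In muscle stem cell-like nuclei it was 1.22 (0.06 to 2.45), from 11 UMIs (40.2 CPM) in the library labelled WT and 18 UMIs (93.6 CPM) in the library labelled KO. In myonuclei it was -0.31 (-0.46 to -0.16). This was the 1 case among 42 pairs of receptor and class that were looked at. The difference between the classes was not tested, since there is 1 library of each genotype.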

How the results depend on the processing

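The 12 alternatives left the direction of all 7 receptors over myonuclei as it was, and their ranges were 0.99 to 1.13 for *Retreg1*, 0.38 to 0.53 for *Sec62*, -0.48 to -0.33 for *Rtn3*, -0.36 to -0.18 for *Ccpg1*, 0.28 to 0.63 for *Tex264*, 0.07 to 0.34 for *Atl3* and -0.57 to -0.35 for *Calcoco1*. The log2 ratio of *Retreg1* left its counting interval under TMM (1.11), median-of-ratios scaling (1.12), means over nuclei (1.03), equal weights of the main Myh gene groups (1.13) and over all nuclei (1.11). After thinning to 1000 UMIs, 2 receptors were at least 1.5-fold higher in the library labelled KO, *Tex264* being the second, and IIa over IIb nuclei had 1 receptor past 1.5-fold higher and 2 lower in both libraries. Means over nuclei also gave 1 higher. The cause was not tested. In the thinned setting, fibre types were set anew from the thinned Myh UMIs. With a minimum of 20 UMIs, 11.2% of genes were past 1.5-fold upwards and 14.4% downwards, against 6.8% and 9.85%. No ratio whose counting interval was off 0 changed sign. Of 77 log2 ratios, 13 with intervals that include 0 did so under at least 1 alternative. After thinning, *Sec62* in the library labelled WT was at -0.47 for IIa over IIb and -0.48 for IIa over IIx nuclei (0.09 and 0.08 before), and *Tex264* in IIb nuclei was at 0.80 between the libraries (-0.10 before). In all, 22 of the 77 moved across 1.5-fold under an alternative. Between the libraries they included *Calcoco1* in IIb nuclei (-0.66 thinned, -0.65 as a mean over nuclei), and in IIa nuclei *Rtn3* (-0.61 as a mean over nuclei), *Ccpg1* (-0.84 with at least 5 Myh UMIs), *Sec62* (0.69 thinned) and *Atl3* (-0.87 thinned). No paired analysis was possible because each group has 1 library and the labels give no replicate numbers. Pooled animals and 1 library per genotype set the limit on these ratios, and for *Tex264* the depth as well.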

Other observations

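Myonuclei of the junctions were too few for a comparison. At the myotendinous junction, 25 and 31 nuclei of the libraries labelled WT and KO had 1453 and 1668 CPM of *Retreg1*, a log2 ratio of 0.20 (-0.12 to 0.52). At the neuromuscular junction, 15 and 9 nuclei had 28 and 48 *Retreg1* UMIs, which is 555 and 1978 CPM.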
